A study of Homo sapiens with 12 samples.

Results

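The 39 HOX genes are the members of the human HOXA, HOXB, HOXC and HOXD clusters. They were chosen by name as the protein-coding genes of the RefSeq table for GRCh38 whose symbol is HOX followed by A, B, C or D and a number, and they are 39 of 19974 protein-coding genes on chromosomes 1 to 22 and X. The rule itself uses gene symbols only, but the HOX genes were taken as a set with earlier results of these data known. The HOXA cluster holds 11 of them, HOXB 10, HOXC 9 and HOXD 9. Each cluster was taken from 1 kb before its first gene to 1 kb after its last, which gave chr7:27091993-27201091 (109 kb) for HOXA, chr17:48527526-48729750 (202 kb) for HOXB, chr12:53937831-54057030 (119 kb) for HOXC and chr2:176086487-176191907 (105 kb) for HOXD. The 100 kb on each side of a cluster served as its flanks.

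The data are peak lists from chromatin immunoprecipitation and sequencing in HEK293T cells, a transformed human embryonic kidney line, of wild type genotype and with no treatment named in the labels. Antibodies against INTS13, INTS11, HDGF, ZEB1 and ZNF609 were used, with 2 libraries per protein and 1 list per library, and 2 input libraries were not analysed here. The stated question is whether INTS13 is found at the same loci as the proteins it interacts with. The labels do not say that replicate libraries were grown as separate cultures, so their spread may be technical, and peak lists hold no expression value with which the cell line could be checked.

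HOX genes encode homeodomain transcription factors that give cells of the embryo their position along the head-to-tail axis. Their order along each cluster matches the order in which they are used in the body, and members with the same number in different clusters are paralogs. In the cells that do not use them, HOX clusters are known as domains of Polycomb repression, and trithorax complexes keep them active elsewhere. INTS13 and INTS11 are subunits of Integrator, a complex that cuts RNA while polymerase II is still making it. INTS11 makes the cut, and INTS13 belongs to a separate module of the complex. HDGF is a chromatin-binding protein with a PWWP domain, a fold that reads methylated histone tails. ZEB1 is a zinc finger repressor that binds E-box sequences, and ZNF609 is a zinc finger protein.

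As examples that need not be typical, 1 HOX promoter per cluster is printed. It is the one with peaks in the most lists where a cluster had more than 1 promoter window. RefSeq promoter entries (GRCh38.p14, 250 bases before to 50 after an annotated start) matched 20 of the 39 genes, with 26 distinct windows. The genes were 9 of HOXA, 1 of HOXB, 2 of HOXC and 8 of HOXD. HOXB and HOXC had 1 distinct window each, so no choice was made there. In HOXA and HOXD more than 1 window had the most lists. The tied HOXA windows all belong to HOXA3 and hold 29, 0 and 6 CpG in 300 bases, and the one with 6 is printed. The 250 bases before the start are printed 5′ to 3′ on the strand of the gene, with every CpG in capitals. HOXA3, a gene of pharyngeal arch and thymus development, is shown at an internal start (chr7:27118358-27118607, minus strand) that lay in peaks of both INTS13 lists and both HDGF lists. HOXB1, a hindbrain patterning gene (chr17:48531012-48531261, minus strand), lay in peaks of both INTS13 and both INTS11 lists and in none of HDGF. HOXC4, whose window is shared with HOXC5 (chr12:54016638-54016887, plus strand), had no peak in any of the 10 lists. HOXD1 (chr2:176188418-176188667, plus strand) lay in peaks of both INTS13 lists and of INTS11 replicate 1.
HOXA3: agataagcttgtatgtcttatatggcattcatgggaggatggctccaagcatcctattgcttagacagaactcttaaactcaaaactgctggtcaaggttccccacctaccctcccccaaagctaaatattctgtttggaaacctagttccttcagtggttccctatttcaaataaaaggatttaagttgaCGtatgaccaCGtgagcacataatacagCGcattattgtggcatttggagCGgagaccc
HOXB1: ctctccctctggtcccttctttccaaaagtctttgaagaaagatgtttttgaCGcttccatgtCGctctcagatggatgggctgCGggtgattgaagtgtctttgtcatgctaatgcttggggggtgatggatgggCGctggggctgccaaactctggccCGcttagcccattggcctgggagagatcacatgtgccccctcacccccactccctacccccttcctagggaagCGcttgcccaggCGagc
HOXC4: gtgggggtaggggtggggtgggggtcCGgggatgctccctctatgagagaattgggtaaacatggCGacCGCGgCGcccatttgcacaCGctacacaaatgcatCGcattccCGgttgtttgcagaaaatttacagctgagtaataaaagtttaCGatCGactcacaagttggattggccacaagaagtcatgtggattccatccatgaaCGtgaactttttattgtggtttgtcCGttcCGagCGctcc
HOXD1: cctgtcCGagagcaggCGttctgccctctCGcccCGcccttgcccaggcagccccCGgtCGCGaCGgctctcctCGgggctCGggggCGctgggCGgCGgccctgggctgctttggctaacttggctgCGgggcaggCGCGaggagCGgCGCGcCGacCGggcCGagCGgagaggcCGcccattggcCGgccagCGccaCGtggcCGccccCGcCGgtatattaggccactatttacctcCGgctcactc
These 250 bases hold 4 CpG in HOXA3, 7 in HOXB1, 14 in HOXC4 and 31 in HOXD1. None of the 4 contains the ZEB1 E-box CACCTG or its reverse complement CAGGTG. Over all windows of 300 bases, 1 of 26 HOX promoters (3.85%, the HOXA7 promoter) held that E-box on either strand, beside 20.6% of 34789 promoters of all genes. HOX promoters had a median of 22.5 CpG, beside 14 for all promoters. Nearly all of these HOX windows lie in HOXA or HOXD, so they say little of HOXB and HOXC promoters.

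Peaks lay in these 26 HOX promoter windows mainly for INTS13, with 18 windows (69.2%) in replicate 1 and 11 (42.3%) in replicate 2, beside 56.1% and 34.4% of all promoters. INTS11 had a peak in 8 windows in replicate 1 and in 1 window, that of HOXB1, in replicate 2, beside 21.8% and 6.73% of all promoters. HDGF had a peak in 6 and 5 HOX windows, beside 8.93% and 8.23% of all promoters. In replicate 2 all of these windows belonged to HOXA3, and in replicate 1 all but those of HOXA2 and HOXD4 did. Windows at alternative starts of 1 gene are not separate genes. No ZEB1 or ZNF609 peak touched a HOX promoter window. HDGF peaks lay in 4 and 3 of the 4 HOX windows with 9 CpG or fewer, in 1 and 1 of the 7 with 10 to 19, and in 1 and 1 of the 15 with 20 or more, the last being a HOXA3 window with 29 CpG. Of the 4 CpG-poor windows 3 belong to HOXA3, and the classes were set after the values were seen. Over all promoters the shares in the same order of classes were 8.07% and 6.29%, 11.2% and 10.8%, and 9.01% and 9.33%.

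The lists differed in size, which bears on every count. Their length ran from 26409 peaks (ZNF609 replicate 2) to 416964 (INTS13 replicate 1), and the share of the chromosomes inside peaks from 0.731% to 11.6%. INTS11 replicate 1 held 195303 peaks and replicate 2 held 106144, and inside the HOX clusters the same 2 lists held 160 and 39. All INTS11 results are therefore given for each list. Peak density also differed by 1-Mb bin. The bin that holds HOXB and the one that holds HOXC13 to HOXC10 had medians over the lists of 2.35 and 2.06 times the mean bin. The bin with HOXC9 to HOXC4 was at 1.72, that of HOXA at 0.962 and that of HOXD at 0.745. Single lists departed from these medians. In the HOXB bin HDGF was at 4.04 and 4.59 and ZNF609 at 0.922 and 0.461. In the HOXA bin HDGF was at 2.02 and 2.04 and ZNF609 at 0.198 and 0. In the HOXD bin HDGF was at 1.55 and 1.64. The flanks served as the local measure of this density. HOX genes are also short, with a median of 3.79 kb beside 24.2 kb for all protein-coding genes, so a window around a HOX gene offers fewer bases in which a peak can fall.

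Nearly all HOX genes carried INTS13 and HDGF peaks, fewer carried INTS11, and almost none carried ZEB1 or ZNF609. A gene was counted for a protein where a peak of each of its 2 lists overlapped the gene or the 1 kb on either side of it. INTS13 was counted at 38 of 39 HOX genes (97.4%), beside 79.7% of all protein-coding genes. By list the counts were 39 and 38, beside 86.1% and 80.9% of all genes. The exception was HOXA4, which had 3 INTS13 peaks in replicate 1 and none in replicate 2. HDGF was counted at 36 of 39 (92.3%), beside 55.4% of all genes, with 37 in replicate 1 (63.4%) and 36 in replicate 2 (59.5%). With windows of 1 kb around the 2 ends of a gene alone, which take no account of its length, the counts were 38 for INTS13 (65.9% of all genes), 36 for HDGF (26.6%) and 10 for INTS11 (20%). HOXB1 and HOXD1, the members at the 3′ tips of their clusters, had no HDGF peak in either list, and HOXD8 had 1, of fold 2.56, in replicate 1.

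INTS11 was counted at 17 of 39 HOX genes (43.6%), which is close to the 42.8% of all genes. Replicate 1 alone touched 36 HOX genes, beside 68.2% of all genes, and replicate 2 alone touched 17, beside 44.5%. The 17 were HOXA3, HOXA7 and HOXA13, then HOXB1, HOXB2, HOXB3, HOXB6, HOXB7 and HOXB13, then HOXC4, HOXC5, HOXC6, HOXC10, HOXC11 and HOXC13, and lastly HOXD3 and HOXD11. HOXA4, HOXA5 and HOXD4 had no INTS11 peak in either list.

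ZEB1 was counted at 1 of 39 HOX genes, beside 16.2% of all genes, with 8 in replicate 1 alone (29.2% of all genes) and 2 in replicate 2 alone (23%). That gene was HOXB6, and its ZEB1 peaks of the 2 lists, chr17:48605137-48605771 and chr17:48601062-48601382, did not overlap. ZNF609 was counted at none, beside 9.79% of all genes. It touched HOXB6 and HOXB7 in replicate 1 (21.3% of all genes) and HOXC4 in replicate 2 (12.6%). With windows of 1 kb around the 2 gene ends alone, ZEB1 and ZNF609 were each counted at 0 HOX genes. The shares of all genes were then only 4.94% and 2.18%. A gene outside a peak list is one where no peak was called, which does not show that the protein was absent.

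**Figure D1:**
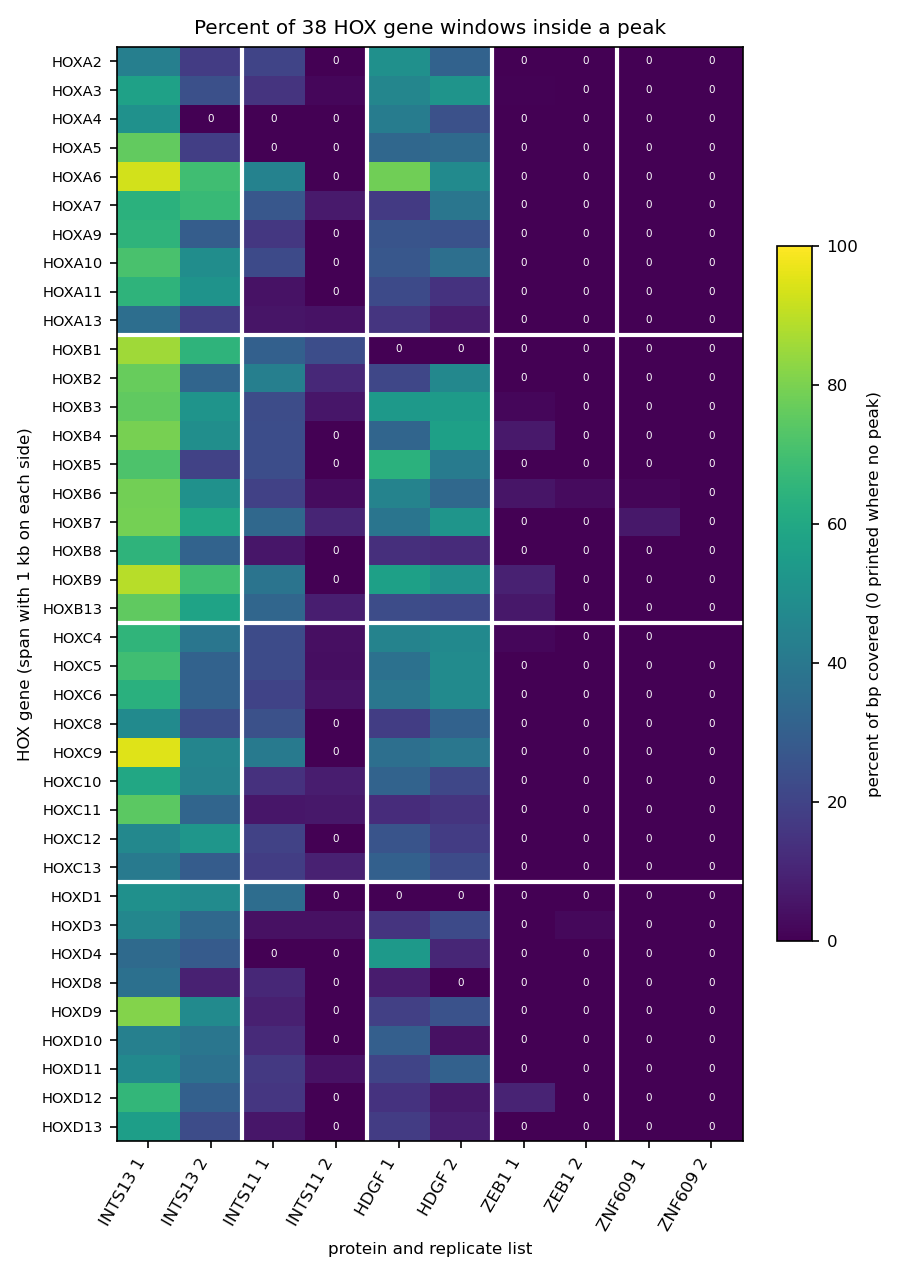
Each row is 1 of 38 HOX genes with 1 kb on each side, each column 1 peak list, and the colour gives the percent of the window's bp inside a peak, with 0 printed where no peak was called. INTS13 fills most rows in both lists and HDGF all but HOXB1 and HOXD1 in at least 1 list, while INTS11 is present mainly in replicate 1, and ZEB1 and ZNF609 columns are nearly empty.

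The 8 HOX genes with peaks in the most lists were HOXB6 (9 lists), HOXC4 (8) and HOXA3, HOXB3, HOXB7, HOXB13, HOXD3 (7 each), with HOXB9 placed among 12 genes with 6 lists by its INTS13 peaks. HOXB6, a gene of the trunk region, had INTS13 peaks over 78.8% and 50.4% of its window in replicates 1 and 2 and HDGF peaks over 44.6% and 34.0%. Its INTS11 cover was 19.3% and 3.25%, its ZEB1 cover 5.65% and 2.86%, and its ZNF609 cover 1.46% in replicate 1 with no peak in replicate 2. INTS13 cover was the highest of the 5 proteins in both lists there.

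HOXB9, a thoracic patterning gene, held the INTS13 peak of greatest fold in any HOX cluster in replicate 1, chr17:48624343-48628440, of fold 4.15 and above 99.4% of the peaks of that list. INTS13 covered 89.3% and 69.5% of the HOXB9 window, INTS11 38.4% with no peak in replicate 2, and HDGF 57.0% and 50.8%. ZEB1 covered 9.15% in replicate 1 and had no peak in replicate 2, and ZNF609 had none. HOXB7, of the same cluster, had INTS13 cover of 79.2% and 59.2%, INTS11 cover of 33.6% and 10.5% and HDGF cover of 38.7% and 52.1%. It had no ZEB1 peak, and ZNF609 covered 6.55% in replicate 1 and nothing in replicate 2. In both genes INTS13 exceeded HDGF in each replicate.

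HOXB13, a tail-end gene known for its role in the prostate, lies 96.4 kb from the HOXB9 window. INTS13 covered 75.8% and 57.8% of its window, INTS11 32.8% and 8.58%, and HDGF 23.1% and 22.2%. ZEB1 covered 6.28% in replicate 1 and had no peak in replicate 2, and ZNF609 had none. Its HDGF cover was less than that of HOXB9 in both lists.

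Long genes that span shorter neighbours carried many peaks. HOXA3 had 18 and 14 INTS13 peaks, 22 and 23 HDGF peaks and 10 and 2 INTS11 peaks in replicates 1 and 2. Its cover was 57.2% and 24.3% for INTS13, 45.9% and 51.8% for HDGF and 15.2% and 1.60% for INTS11, with ZEB1 at 0.698% in replicate 1, no ZEB1 peak in replicate 2 and no ZNF609 peak. The annotated HOXA3 span of 45.6 kb contains HOXA4, HOXA5 and HOXA6, so these windows share peaks. HOXB3, with a span of 41.4 kb over HOXB4, had INTS13 cover of 75.7% and 51.6%, HDGF cover of 54.3% and 54.7% and INTS11 cover of 23.2% and 6.23%. ZEB1 covered 1.62% of it in replicate 1, with no ZEB1 peak in replicate 2 and no ZNF609 peak. HDGF cover thus differed little between lists in HOXB3, while INTS13 and INTS11 cover was larger in replicate 1.

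HOXC4, whose annotated span starts with HOXC5 and HOXC6, had INTS13 cover of 65.4% and 39.1%, INTS11 cover of 22.9% and 3.94% and HDGF cover of 44.5% and 47.3%. ZEB1 covered 1.95% in replicate 1 and nothing in replicate 2, and ZNF609 nothing in replicate 1 and 0.238% in replicate 2. The INTS13 peak of greatest fold in any HOX cluster in replicate 2 lay in HOXC4 and HOXC5, at chr12:54030886-54032478, with fold 3.20. HOXD3 had less HDGF than the long genes of the other clusters, with cover of 14.9% and 22.6%, beside INTS13 cover of 46.4% and 33.8% and INTS11 cover of 4.61% and 4.58%. ZEB1 covered nothing in replicate 1 and 2.19% in replicate 2 of the HOXD3 window, and ZNF609 had no peak.

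Over all 39 genes, the median cover of a window was 27.2% and 25.3% for HDGF, beside 2.08% and 1.17% for all protein-coding genes, and 20 and 26 of the 39 lay above the 90th percentile of all genes. For INTS13 the medians were 65.1% and 33.8%, beside 17.4% and 14.6%, with 15 and 3 genes above that percentile. For INTS11 they were 19.6% and 0%, beside 3.19% and 0%, with 5 and 1. The position of the HOX genes among all genes was thus alike in the 2 HDGF lists and unlike in the 2 INTS13 lists. Members that overlap share their peaks and are not independent.

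By paralog number, genes 1 to 4 (12 genes) had a median HDGF cover, averaged over the 2 lists, of 33.7%, genes 5 to 8 (11 genes) of 39.3% and genes 9 to 13 (16 genes) of 22.4%. The ranges, 0% to 54.5%, 3.88% to 63.0% and 10.4% to 53.9%, overlapped throughout. HDGF was counted at 10 of 12, 10 of 11 and 16 of 16 of these genes. Median INTS13 cover was 44.9%, 48.5% and 50.9% in the same order, and INTS11 was counted at 6 of 12, 5 of 11 and 6 of 16. The highest mean HDGF cover of the 39 was that of HOXA6, with 78.2% and 47.8% in the 2 lists, and its INTS13 cover of 93.0% and 69.3% was also the highest by mean.

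The clusters were richer in HDGF peaks than the DNA around them, in each of the 4 clusters and in both lists. HDGF peaks covered 28.2% ± 0.0852 (SD, n = 2) of the bases of the 4 clusters and 4.57% ± 0.903 of their flanks, a difference of 23.7 ± 0.818 percentage points. The 2 lists gave 28.3% and 28.2% inside the clusters and 5.21% and 3.93% outside, so the groups of values did not overlap. Near-equal totals do not mean the same bases. Of the cluster bases in HDGF peaks of replicate 1, 50.2% lay in peaks of replicate 2, and the reverse share was 50.4%. In HOXA the means were 37.6% and 4.20%, in HOXB 25.1% and 4.48%, in HOXC 35.2% and 8.26%, and in HOXD 16.6% and 1.33%. The HOXC flanks were uneven, with 0.393% beyond HOXC13 and 16.1% beyond HOXC4. HOXD had the lowest HDGF cover of the 4 clusters in each list.

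INTS13 peaks covered 57.5% and 41.0% of the clusters and 28.2% and 24.3% of the flanks in replicates 1 and 2, means of 49.2% ± 11.7 and 26.3% ± 2.80 (SD, n = 2). The difference was 23.0 ± 8.86 percentage points, of the same sign in both lists. It was smallest in HOXB, where the means were 52.7% in the cluster and 42.4% in the flanks, and larger in HOXA (47.6% and 20.7%), HOXC (53.7% and 29.9%) and HOXD (39.1% and 12.0%). In HOXA the difference was 39.4 percentage points in replicate 1 and 14.2 in replicate 2.

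INTS11 peaks covered 18.9% and 3.78% of the clusters and 9.99% and 1.86% of the flanks. The difference of 5.42 ± 4.94 percentage points (SD, n = 2) was positive in both lists but no larger than about the spread between them. ZEB1 covered 1.17% and 0.219% of the clusters and 0.469% and 0.692% of the flanks, so the sign of its difference changed with the list (0.113 ± 0.828). ZNF609 covered 0.282% and 0.0183% of the clusters and 0.362% and 0.126% of the flanks. These comparisons were given no test, because the clusters were picked with earlier results known and the smallest p that an exact permutation of 2 lists against 2 allows is 0.333.

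**Figure D2:**
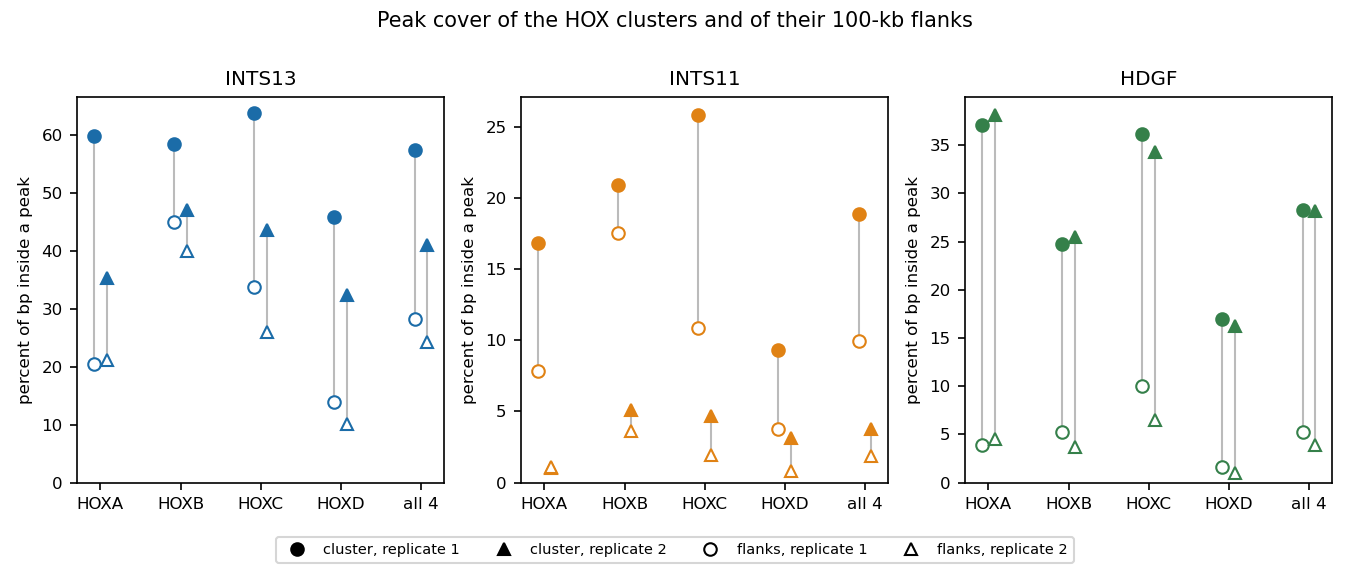
The vertical axis is the percent of bp inside a peak, filled symbols are the cluster and open symbols its 100-kb flanks, with circles for replicate 1 and triangles for replicate 2. HDGF circles and triangles nearly coincide, at 28.3% and 28.2% in all 4 clusters and 5.21% and 3.93% in the flanks, while INTS11 replicate 2 lies far below replicate 1. In HOXA the INTS11 replicate 2 symbols for cluster and flanks overlap.

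Pooled over the 8 cluster edges, HDGF cover was lower just outside the clusters than just inside. In the last 10 kb inside HDGF peaks covered 20.5% and 20.3% of the bases, and in the first 10 kb outside 7.88% and 4.67%. Between 20 and 30 kb inside, cover was 30.0% and 30.1%. Single edges differed, since the outermost HOXB1 and HOXD1 had no HDGF peak, and the 100 kb beyond HOXC4 had about the cover of the HOXD cluster (16.1% and 16.6%). INTS13 cover went from 51.4% and 39.1% in the last 10 kb inside to 38.5% and 35.2% in the first 10 kb outside. In proportion to the cover inside, this step was smaller than that of HDGF in both lists. In percentage points it was smaller only in replicate 2. Between 90 and 100 kb away INTS13 cover was 22.5% and 24.6%.

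**Figure D3:**
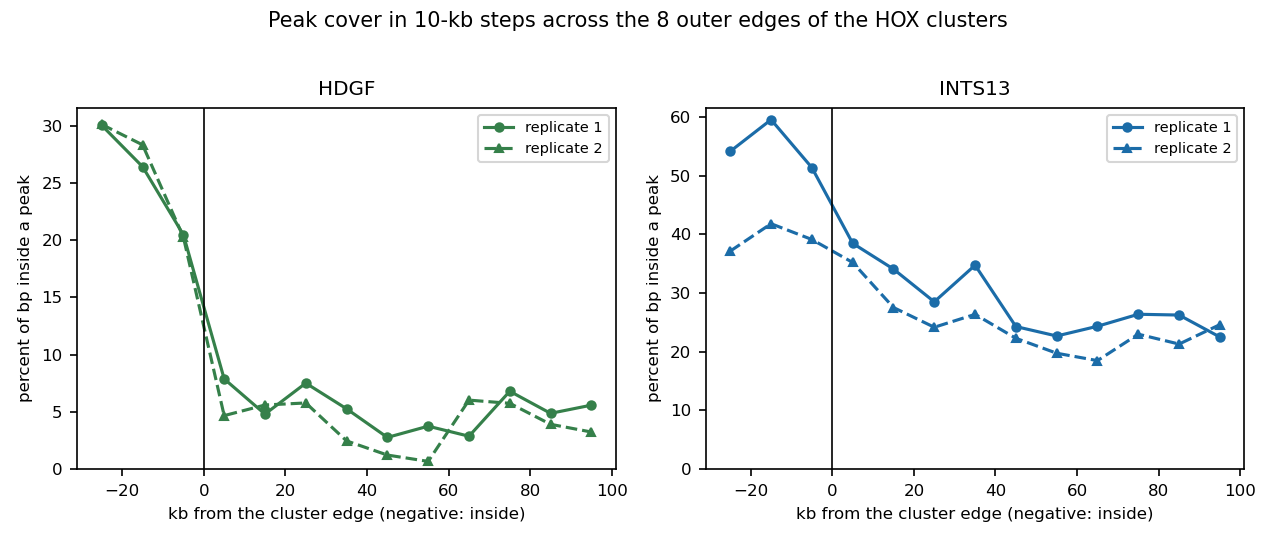
The horizontal axis is the distance in kb from a cluster edge, negative inside, in steps of 10 kb pooled over the 8 edges, and the vertical axis is the percent of bp inside a peak, with a line for each replicate. HDGF goes from 20.5% and 20.3% just inside to 7.88% and 4.67% just outside, and INTS13 from 51.4% and 39.1% to 38.5% and 35.2%.

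In HOXB, HDGF lay more on the HOX genes than between them, with 44.2% and 43.7% of gene windows inside peaks and 9.10% and 10.7% of the DNA between. The other 3 clusters had no such difference. In HOXA gene windows had 36.2% and 38.5% and the DNA between 41.4% and 36.2%, in HOXC 35.4% and 35.7% beside 37.8% and 31.1%, and in HOXD 17.2% and 16.2% beside 16.8% and 16.4%, so that in each of them the direction changed with the list. The values pooled over the 4 clusters, 34.3% and 34.7% on genes and 18.7% and 17.8% between, thus rest on HOXB. INTS13 covered 62.5% and 38.9% of gene windows and 49.4% and 44.3% of the DNA between them over the 4 clusters, so its pooled direction changed with the list. The longest interval without a HOX gene, 96.4 kb between HOXB9 and HOXB13, which holds PRAC1, PRAC2 and non-coding genes, had HDGF cover of 7.13% and 9.44% and INTS13 cover of 41.3% and 39.9%. The 13.6 kb between HOXD3 and HOXD1 had HDGF cover of 6.92% and 15.2%. Not all gaps were poor: the 7.13 kb between HOXA11 and HOXA13 had HDGF cover of 46.1% and 46.6%, and the 12.2 kb between HOXC12 and HOXC11, where the non-coding RNA gene HOTAIR lies, 42.6% and 35.3%.

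**Figure D4:**
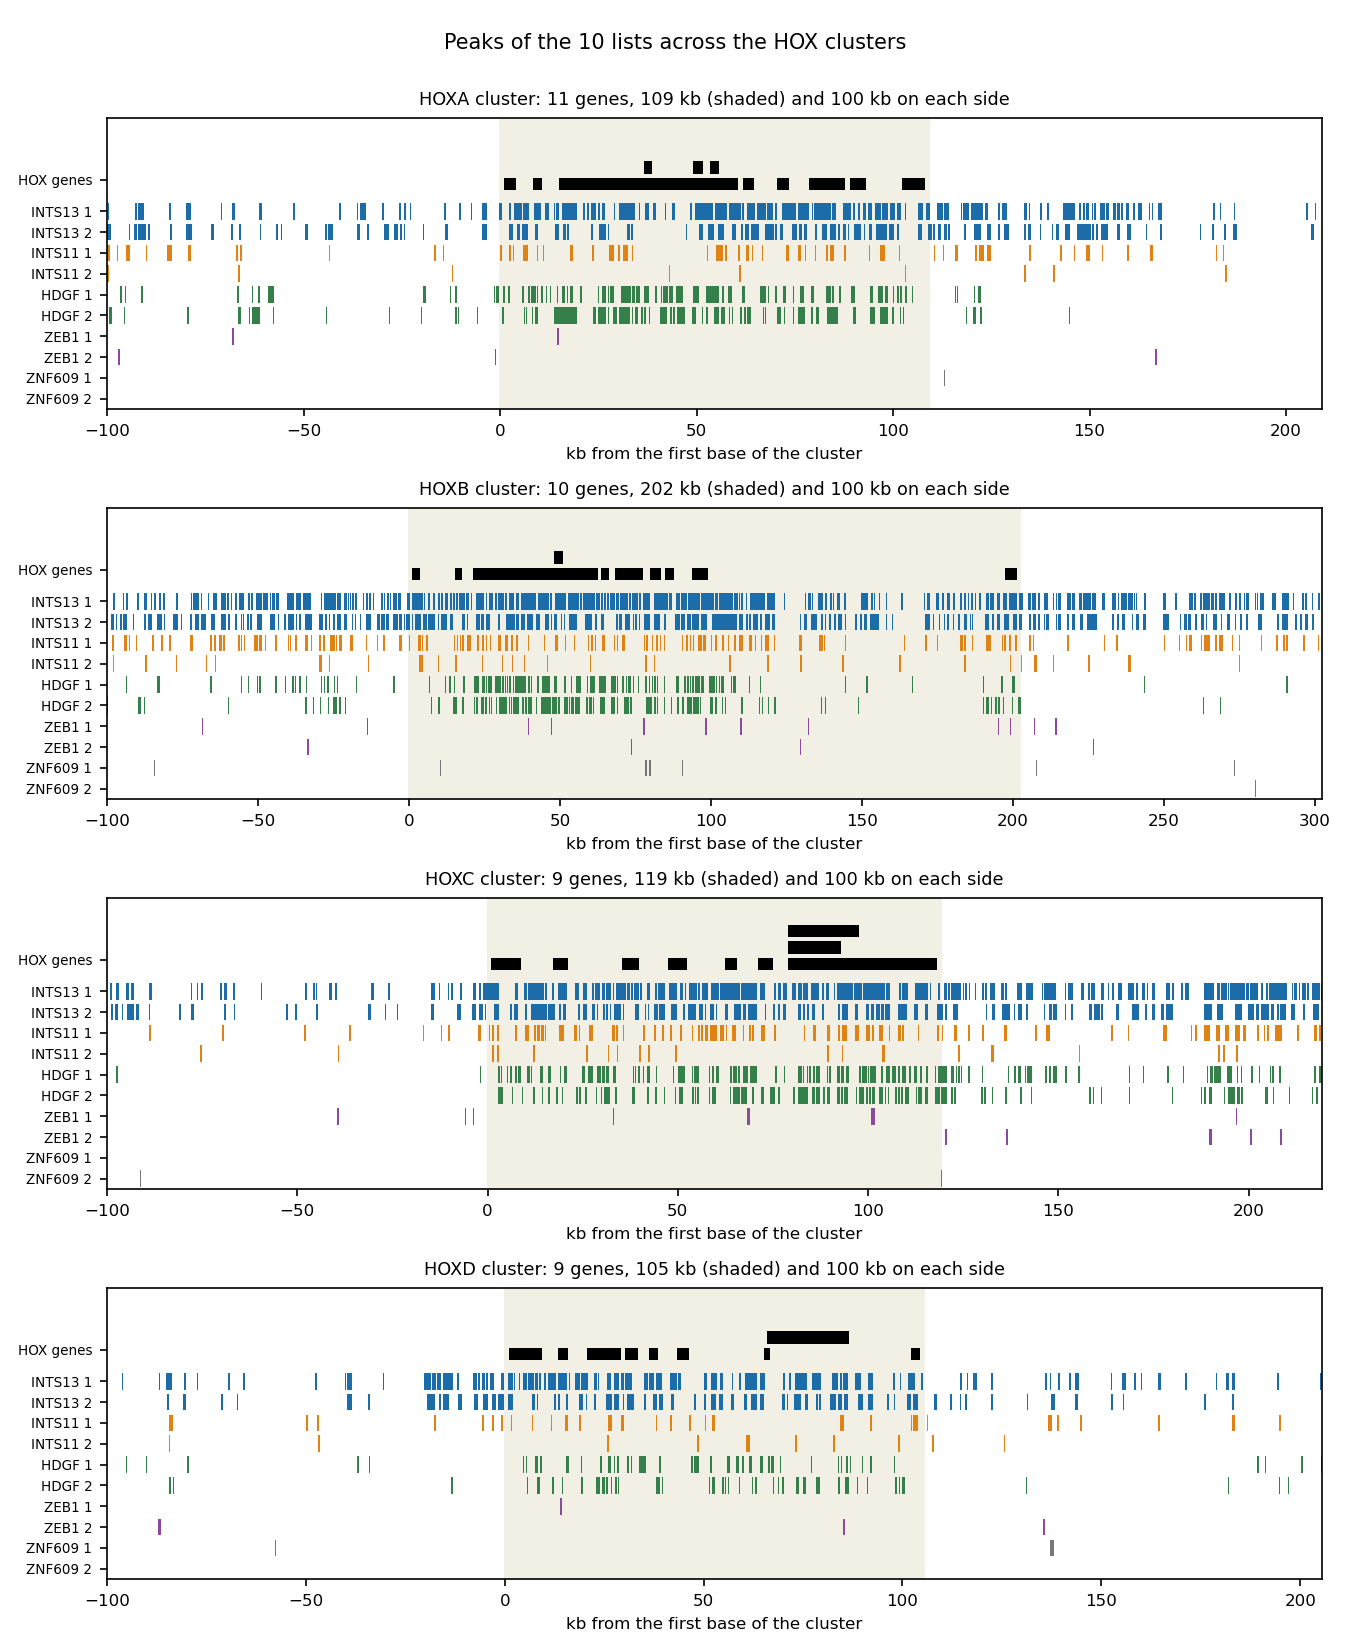
Each panel is 1 cluster (shaded) with 100 kb on each side, the horizontal axis gives kb from the first base of the cluster, black boxes are HOX genes and coloured bars are the peaks of the 10 lists. HDGF bars crowd inside the shaded clusters and thin out over the 96.4 kb between HOXB9 and HOXB13, and ZEB1 and ZNF609 have 13, 3, 4 and 1 peaks inside the 4 clusters.

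With the full lists, HDGF peaks lay at the 3′ ends of HOX genes more often than at their starts. Strand was taken from the promoter table, in which every HOX entry of a cluster lies on 1 strand, so that the same strand was used for members without an entry. A peak within 250 bp of the annotated 3′ end was present in both HDGF lists at 22 of 39 HOX genes (56.4%), beside 7.76% of 15832 genes with a strand. For the start the count was 1 of 39, HOXA6, beside 4.78% of genes. By list, 3′ ends were touched at 30 and 25 HOX genes (16.1% and 13.1% of all genes) and starts at 5 and 3 (10.6% and 10.3%), so the order was the same in each list. With 1 kb on each side in place of 250 bp, HDGF was counted at 15 HOX starts and 33 HOX 3′ ends, beside 15.4% and 17.3% of genes. With peaks of −log10 q of 5 or more it was counted at 1 start and 2 3′ ends, beside 0.537% and 0.941%. These counts are too few to show the contrast among the stronger peaks. As another background, 31.3% of all positions in the 4 clusters had an HDGF peak within 250 bp in both lists.

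The 22 genes with an HDGF peak at the 3′ end were 8 of 11 in HOXA, 8 of 10 in HOXB, 4 of 9 in HOXC and 2 of 9 in HOXD. In HOXA they included HOXA3, HOXA7 and HOXA13. In HOXB they were all members from HOXB2 to HOXB9, and in HOXC they were HOXC4, HOXC5, HOXC6 and HOXC9. In HOXD they were HOXD3 and HOXD10. The HDGF peak of greatest fold in any HOX cluster in replicate 1, chr7:27153605-27154450, spans the annotated 3′ end of HOXA7 and lies in the non-coding gene HOXA-AS3. Its fold of 5.92 was above 99.9% of the peaks of that list. In replicate 2 the HDGF peak of greatest fold, chr17:48590737-48592306, spans the 3′ end of HOXB5, with fold 5.57.

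The profile of single points gave the same picture at the start. The start itself lay in an HDGF peak at 1 and 2 of 39 HOX genes, and the point 1 kb upstream at 18 and 13. At 1.5 kb downstream of the start 16 and 11 genes had the point in a peak. Over all genes HDGF also dipped at the start, with 5.66% and 5.46% at the start and 13.3% and 11.4% at 1.5 kb downstream. Of the HOX 3′ ends, 21 and 20 had the point 0.5 kb upstream of the end in an HDGF peak, beside 10.2% and 8.24% of all genes.

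INTS13 was counted at HOX starts about as often as at HOX 3′ ends. A peak within 250 bp was present in both lists at 18 of 39 starts, beside 42.1% of all genes, and at 20 of 39 3′ ends, beside 23.4%. Both shares, 46.2% and 51.3%, lay below the 54.3% of all cluster positions with an INTS13 peak within 250 bp in both lists. In replicate 1 alone 31 HOX starts (69.6% of all genes) and 26 HOX 3′ ends (33.8%) were touched, and in replicate 2 alone 19 (45.2%) and 21 (31.2%). The start itself lay in an INTS13 peak at 23 and 10 HOX genes, and the point 0.5 kb upstream at 32 and 15. INTS11 was counted at 1 HOX start and 2 HOX 3′ ends, beside 7.43% and 4.94% of all genes, with 12 starts (30.1%) and 13 ends (15.9%) in replicate 1 alone and 2 starts (9.01%) and 3 ends (6.97%) in replicate 2 alone.

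**Figure D5:**
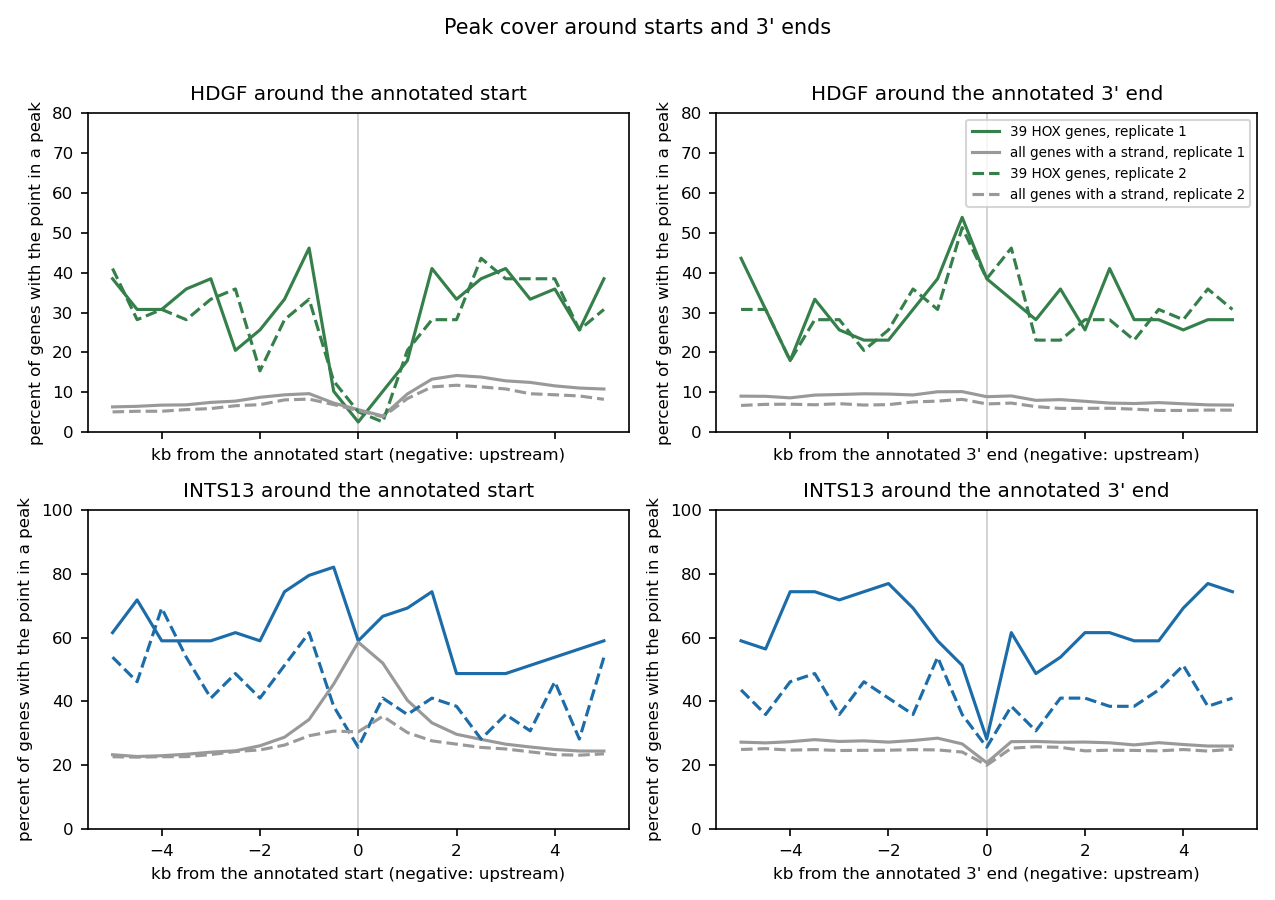
The vertical axis is the percent of genes whose point at the given distance, in kb, lies in a peak; coloured lines are the 39 HOX genes, grey lines all genes with a strand, solid for replicate 1 and dashed for replicate 2. HDGF drops at HOX starts to 1 and 2 genes of 39 and is highest 0.5 kb before the 3′ end, at 21 and 20 genes, while INTS13 covers the start of 23 and 10 of the 39 genes.

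Most HDGF peaks in the clusters recurred in the other HDGF list, more than over the whole lists. Of 212 and 208 HDGF peaks in the clusters, 68.4% and 65.4% overlapped a peak of the other replicate, beside 33.6% and 45.6% of all peaks. For INTS13 the shares were 78.0% of 232 and 94.0% of 215, beside 59.6% and 66.7%. For INTS11 they were 13.1% of 160 and 51.3% of 39, below the 31.4% and 61.7% of the whole lists. None of the 13 and 3 ZEB1 peaks and none of the 4 and 1 ZNF609 peaks overlapped one of the other list. A list with more cover in a region also gives more overlap there.

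HDGF and INTS13 shared much of the clusters. Regions holding a peak of each list of a protein numbered 152 for INTS13, 116 for HDGF and 20 for INTS11 in the clusters, and 0 for ZEB1 and ZNF609. An INTS13 region overlapped 102 of the 116 HDGF regions (87.9%, exact Clopper-Pearson 95% interval 80.6% to 93.2%, for counting error only), beside 76.6% of all 44211 HDGF regions. It overlapped 17 of the 20 INTS11 regions (85%, 62.1% to 96.8%), beside 84.7% of all. By bases, 60.2% ± 11.7 (SD over 4 pairs of lists, which share lists) of HDGF cover lay in INTS13 peaks, and INTS13 peaks covered 49.2% of the clusters. The ratio of these lay between 1.19 and 1.26 in the 4 pairs, so the overlap by bases was little above what INTS13 cover alone gives.

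INTS13 and HDGF peaks of the HOX clusters ranked above the middle of their lists, and INTS11 peaks below it. The median peak in the clusters ranked at the 70.9th and 62.2nd percentile of the HDGF lists by −log10 p, at the 78.8th and 54.3rd of the INTS13 lists and at the 48.2nd and 30.2nd of the INTS11 lists. In the clusters 16.5% and 12.5% of HDGF peaks reached a −log10 q of 5, beside 6.19% and 4.47% of all HDGF peaks. For INTS13 37.1% of cluster peaks in replicate 1 and 8.37% in replicate 2 did so, beside 15.1% and 12.1%, so the lists differed in direction. With peaks of −log10 q of 5 or more, HDGF was counted at 10 of 39 HOX genes (25.6%), beside 6.61% of all genes, INTS13 at 10 of 39, below the 30.9% of all genes, and INTS11 at 0 of 39, beside 5.29%. Among the 10000 peaks of highest −log10 p, HDGF was counted at 12 of 39 (30.8%), beside 9.46%, INTS13 at 1 of 39, beside 6.67%, and INTS11 at 0 of 39, beside 4.44%. By these gene counts, the excess of INTS13 over all genes was present with the full lists and not with the stricter ones. That of HDGF was present with both. The counts do not allow for the shorter length of HOX genes. By cover, the INTS13 difference between clusters and flanks kept a mean above 0 at −log10 q of 5 or more. It was 14.9 ± 17.2 percentage points (SD, n = 2), with a spread larger than the mean.

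Related genes gave the setting for these counts. Of 26 non-coding RNA and EVX genes in or beside the clusters, which share their DNA and peaks with the HOX genes, INTS13 was counted at 26 and HDGF at 21 (80.8%), beside 79.7% and 55.4% of all protein-coding genes. The exceptions for HDGF were HOTTIP, HOXC-AS1, MIR615, EVX1 and EVX2. INTS11 was counted at 9 of them (34.6%), beside 42.8% of all protein-coding genes. ZEB1 was counted at 1, HOXB-AS3, beside 16.2%, and ZNF609 at 0, beside 9.79%. Of 28 ANTP-class homeobox genes outside the clusters, relatives of the HOX genes with a median length of 5.48 kb, INTS13 was counted at 28, beside 79.7% of all genes, and HDGF at 17 (60.7%), near the 55.4% of all genes. Their median HDGF cover was 6.82% and 5.46%, beside 27.2% and 25.3% for the HOX genes, and their median INTS13 cover 48.4% and 37.7%, beside 65.1% and 33.8%.

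Genes whose products act with HOX proteins or on HOX genes were counted as well. HDGF was counted at 8 of 9 TALE-class cofactor genes (the PBX, MEIS and PKNOX families), 23 of 27 Polycomb group genes, 14 of 16 trithorax and MLL complex genes and 10 of 14 retinoic acid and CDX regulator genes, beside 55.4% of all genes. INTS13 was counted at 8, 22, 15 and 12 of the same lists (all genes 79.7%) and INTS11 at 5, 19, 12 and 8 (42.8%). ZEB1 was counted at 4, 11, 3 and 3 of them (16.2%) and ZNF609 at 3, 5, 2 and 2 (9.79%). These genes are longer, with medians between 20.1 and 139 kb, so their windows offer more bases than those of HOX genes. Their HDGF cover was lower than that of HOX genes, with list medians between 2.73% and 12.8%.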

How the data were processed

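Peak lists from 10 chromatin immunoprecipitation libraries of HEK293T cells were used, grouped by protein and replicate from the sample titles. Per the submitters' processing notes, FastQC, Trimmomatic, Bowtie, Picard and MACS2 were used; the sources used here do not give their versions, the control, the threshold or the build. GRCh38 was inferred from the names of alternate contigs in the files. Peaks had been called per library, and some had been removed before deposit by a filter that is not described.

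The fold of a peak is the ratio of its summit to the caller's background, as deposited by the authors. Each peak also has a −log10 p-value, a −log10 q-value and a score made from the latter, all deposited by the authors. They served to rank or select peaks inside 1 list and to describe single peaks. Read depth is unknown.

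From the lists, the overlap of a peak by 1 bp or more with a gene and 1 kb on each side was counted, with Python 3.11.15, numpy 2.4.6, pandas 2.3.3, scipy 1.17.1 and matplotlib 3.10.9. Covered bases, merged regions holding a peak of each list, and distances to starts and 3′ ends were computed on chromosomes 1 to 22 and X. The interval code was tested on simulated data. Starts, 3′ ends and strand rest on the RefSeq tables, and 19 of the 39 HOX genes had no promoter entry. The HOX genes and all gene lists were chosen with earlier results of these data known, so no test over the members is given. They are counted in full, but values of 1 of them are not reported here by name. Values in every list are given for the 8 HOX genes with peaks in the most lists, ties being broken by the within-list percentile of the best INTS13 peak, taken as the median of both lists; they include the gene of each cluster that is highest by this median. Alternatives were other windows, summits, stricter peaks, other flanks, and each list alone; results at starts and 3′ ends, and the omission of a cluster, were added after seeing the data.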

Additional observations from a re-analysis of the deposited data

Results flagged for a closer look

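ZNF609 was the only 1 of the 5 proteins whose cover, summed over the 4 HOX clusters, was lower than in their flanks in both lists. Its mean difference was −0.0938 percentage points, with −0.0799 in replicate 1 and −0.108 in replicate 2. No single cluster had a difference below 0 in both lists. In HOXB it was 0.105 in replicate 1 and −0.1655 in replicate 2. It was 0 in HOXA and HOXD in replicate 2 and in HOXC in replicate 1. INTS13 (29.2 and 16.7), INTS11 (8.92 and 1.93) and HDGF (23.1 and 24.2) had differences above 0 in both lists. The ZNF609 values rest on 4 and 1 peaks in the clusters and 6 and 2 summits in the flanks, and the difference between proteins was not tested.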

How the results depend on the processing

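No paired analysis was possible because the results are counts and covered shares with no test. Values rest on peaks as called, and read depth, which limits what was called, is unknown.

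With −log10 q of 5 or more, HOX genes counted within 1 kb were 10 for INTS13, 0 for INTS11, 10 for HDGF and 0 for ZEB1, beside 30.9%, 5.29%, 6.61% and 0.871% of all genes. With the 10000 top peaks they were 1, 0, 12 and 0, beside 6.67%, 4.44%, 9.46% and 3.49%. Within 1 kb of either gene end INTS11 gave 10 (20%), ZEB1 0 (4.94%) and ZNF609 0 (2.18%). ZEB1 gave 0 with no margin (15.3%) and 2 with 5 kb (18.8%). With 1 list alone the counts ran from 38 to 39 for INTS13, 17 to 36 for INTS11, 36 to 37 for HDGF, 2 to 8 for ZEB1 and 1 to 2 for ZNF609.

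At −log10 q of 5 or more, the difference in cover between clusters and flanks was 6.93 percentage points for HDGF and 0.301 for INTS11. It was −0.0248 for ZEB1 (a changed sign) and 0 for ZNF609. For INTS13 it was 14.9, with an SD of 17.2 over the 2 lists. With the 10000 top peaks it was 8.39 for HDGF, 0.768 for INTS13, 0.157 for INTS11 and 0 for ZNF609. For HDGF it was 21.2 without HOXA, 25.5 without HOXB and 25.4 without HOXD. With 1 list alone it ran from 16.7 to 29.2 for INTS13, 1.93 to 8.92 for INTS11, 23.1 to 24.2 for HDGF, −0.473 to 0.698 for ZEB1 and −0.108 to −0.0799 for ZNF609. For the 4 clusters summed, flanks of 50 or 200 kb, summits in place of bases, and omitting peaks of 10 kb or more changed no direction. In HOXB alone, INTS13 summits per 100 kb were fewer in the cluster (43.5 and 39.6) than in the flanks (49 and 42). This is the reverse of its cover in both lists.

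HDGF regions overlapped INTS13 regions in 76.7% at an overlap of 50% of the shorter region and in 10% (1 of 10) at −log10 q of 5 or more. With 1 list per protein the share ran from 71.2% to 84.0%, and for INTS11 from 66.7% to 95%. INTS11 had no region at that threshold, and ZEB1 and ZNF609 had none at all, so these gave no value.

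At starts, with the share of all genes in parentheses, INTS13 gave 36 HOX genes within 1 kb (60.1%) and 1 at −log10 q of 5 or more (12.1%). INTS11 gave 3 within 500 bp (11%), 5 within 1 kb (15.4%) and 0 at that threshold (1.5%). HDGF gave 4 within 500 bp (7.65%), 15 within 1 kb (15.4%) and 1 at the threshold (0.537%). At 3′ ends INTS13 gave 33 within 1 kb (42.8%) and 4 at the threshold (6.61%), INTS11 5 (10.6%) and 0 (0.992%), and HDGF 2 at the threshold (0.941%). With 1 list alone starts ran from 19 to 31 for INTS13, 2 to 12 for INTS11 and 3 to 5 for HDGF, and 3′ ends from 21 to 26, 3 to 13 and 25 to 30. Stricter settings leave fewer peaks and wider windows take in more; no other cause was tested.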

Other observations

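The microRNA genes within the HOX clusters were read separately. MIR10A, MIR10B, MIR196A1, MIR196A2 and MIR196B are of the families known to target HOX messenger RNAs. All 5 had an HDGF peak and an INTS13 peak within 1 kb in both lists, beside 55.4% and 79.7% of all protein-coding genes. Of all positions in the clusters, 31.3% and 54.3% had such a peak within only 250 bp. The counts thus say little about the microRNA genes themselves. MIR615, in the HOXC cluster, had INTS13 in both lists and HDGF in replicate 2. INTS11 touched 4 of these 5 genes and MIR615 in replicate 1 (68.2% of all protein-coding genes). It touched none of the 6 in replicate 2 (44.5%).

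HOTAIR, a non-coding RNA gene between HOXC12 and HOXC11, had INTS13, INTS11 and HDGF peaks within 1 kb in both lists. It also held the INTS11 peak of greatest fold in the HOXC cluster in replicate 2, chr12:53963674-53964120, of fold 2.45. HOXB-AS3, which overlaps HOXB6, had all 5 proteins in replicate 1 and 4 in replicate 2, where ZNF609 had no peak. EVX1 and EVX2, homeobox genes beside HOXA13 and HOXD13, had INTS13 peaks in both lists, INTS11 in replicate 1 and no HDGF peak.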
